A study of Mus musculus with 16 samples.

Results

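Fibroblasts of the meninges and of the sheaths around brain vessels build the collagen-rich matrix that borders the central nervous system. They secrete fibrillar collagens, small leucine-rich proteoglycans that coat and space collagen fibrils, and fibulins that join elastic fibres to basement membranes. Microglia, the resident macrophages of the brain parenchyma, are not known as a source of these proteins. Messenger RNA for 10 such genes was followed here in a preparation enriched for microglia. They were the collagen genes Col1a1, Col1a2 and Col3a1, the proteoglycan genes Dcn, Lum and Ogn, and Pdgfra, Fbln1, Islr and Slc6a13. The genes were chosen by name, and all 10 were among the 24421 rows of the count table and among the 14565 genes that passed the filter on low counts.

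The libraries came from weaned female C57BL/6J mice kept on their diet for one month. CON mice (n = 4 libraries) ate standard chow, MAL mice (n = 5) ate an isocaloric diet low in protein and fat, and MAL-BG mice (n = 7) ate the MAL diet and were gavaged with a mix of E. coli and Bacteroidales, as a model of fecal-oral contamination. CON and MAL mice were gavaged with buffer, and no group had the bacteria on the CON diet, so diet and bacteria are separable only along the series CON, MAL and MAL-BG. Cells positive for CD11b, a surface integrin of myeloid cells, were pulled with magnetic beads from dissociated brain tissue, which is labelled as cortical, and polyadenylated RNA was sequenced. The code of the study fits a batch term beside condition, but no source used here states which animal or batch a column of the count table came from. A batch term therefore could not be fitted, batch and group cannot be told apart in the fits given here, and the spread between libraries may be partly technical.

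Library totals were 10312703 to 13461574 counts in CON, 10864121 to 12819982 in MAL and 14191791 to 18705202 in MAL-BG, so MAL-BG was also the most deeply sequenced group. Levels are given as CPM, counts per 1000000 counts of the scaled library total. All 11 microglia markers were counted in every library, and their summed level was 17736 to 28672 CPM in CON, 18399 to 31111 CPM in MAL and 38031 to 51631 CPM in MAL-BG. The sum of the 10 matrix genes was 63.6 to 328.8 CPM in CON, 99.8 to 194.1 CPM in MAL and 33.7 to 189.0 CPM in MAL-BG. The matrix genes were thus a trace signal in a myeloid preparation. In such bulk RNA, fewer fibroblasts and less RNA per fibroblast cannot be told apart.

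A pair of libraries, chosen after the values were seen, held some genes far above the rest of their groups. MAL-BG 5 held 1005 counts of Col1a1, against 22 to 109 in the other 6 MAL-BG libraries. It also held 195 counts of Ibsp, a bone matrix gene that had 0 or 1 count in every other library, 490 counts of Mmp13, a collagenase gene with 3 to 37 counts elsewhere, and 9338 counts of Mpo, a granule gene of maturing neutrophils with 0 to 461 counts elsewhere. CON 4 was the highest CON library for 9 of the 10 matrix genes and held 725 counts of Col6a1, a type VI collagen gene with 9 to 278 counts elsewhere. Ibsp, Mmp13, Mpo and Col6a1 were chosen after their values were seen. Results that rest on these libraries are given with and without them. The 10 matrix genes, the related matrix lists described below and their named genes were refitted without each of these libraries and without both. The counts of cell type markers were not refitted without them. CON 1 and MAL-BG 6 lay as far from their group means on the low side. Their mean deviation over the 10 genes was -1.13 each in log2 CPM, beside 1.10 in CON 4 and 0.80 in MAL-BG 5. The mean of MAL-BG 5 was raised by Col1a1 (3.51), while Dcn (-0.46) and Pdgfra (-0.38) lay below their group means. The mean of MAL-BG 6 was lowered by Lum (-3.24), whose count of 0 makes the value depend on the small count added before taking logs. CON 1 and MAL-BG 6 were left out only 1 at a time.

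The 4 genes that were lower in MAL-BG than in both other groups were Ogn, Pdgfra, Fbln1 and Islr. Their proximal promoters are shown because these genes passed the test in both comparisons. That of Col1a2 is shown as the most abundant member that did not pass with all libraries. Without MAL-BG 5, Col1a2 was also called lower in MAL-BG, by -1.53 in log2 relative to CON and by -1.002 relative to MAL. Its window is therefore not that of a gene known to be unchanged, and differences from the other windows do not separate changed from unchanged genes. The RefSeq table of build GRCm38.p6 held promoters of 7 of the 10 genes, without Col1a1, Dcn and Lum. Each line gives the 250 bases before the first RefSeq start, 5′ to 3′ on the strand of the gene. Capitals mark matches on either strand to the CCAAT box (CCAAT), the GC box (GGGCGG), the TATA box (TATAAA), the AP-1 site (TGANTCA) and the E-box (CANNTG). The windows are chr13:49607765-49608014 (plus strand) for Ogn, chr5:75152001-75152250 (plus) for Pdgfra, chr15:85205699-85205948 (plus) for Fbln1, chr9:58158555-58158804 (minus) for Islr and chr6:4505368-4505617 (plus) for Col1a2.
Ogn: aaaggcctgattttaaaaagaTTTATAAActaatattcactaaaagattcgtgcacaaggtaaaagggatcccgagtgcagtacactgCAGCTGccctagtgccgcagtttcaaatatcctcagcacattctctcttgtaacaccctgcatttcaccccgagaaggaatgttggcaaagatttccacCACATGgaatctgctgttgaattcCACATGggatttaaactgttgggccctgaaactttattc
Pdgfra: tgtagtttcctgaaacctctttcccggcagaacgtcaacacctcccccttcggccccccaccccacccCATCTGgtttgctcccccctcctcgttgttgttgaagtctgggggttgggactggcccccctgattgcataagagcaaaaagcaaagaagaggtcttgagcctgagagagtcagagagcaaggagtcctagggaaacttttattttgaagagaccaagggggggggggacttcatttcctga
Fbln1: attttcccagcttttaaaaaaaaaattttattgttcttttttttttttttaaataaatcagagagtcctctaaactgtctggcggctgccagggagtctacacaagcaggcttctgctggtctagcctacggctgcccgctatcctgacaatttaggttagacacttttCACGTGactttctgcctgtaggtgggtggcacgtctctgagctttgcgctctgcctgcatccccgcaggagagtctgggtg
Islr: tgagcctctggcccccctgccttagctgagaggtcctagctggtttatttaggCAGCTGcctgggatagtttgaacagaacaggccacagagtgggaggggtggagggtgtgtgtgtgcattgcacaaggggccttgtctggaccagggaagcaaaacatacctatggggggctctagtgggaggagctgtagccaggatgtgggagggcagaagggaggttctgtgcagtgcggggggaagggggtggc
Col1a2: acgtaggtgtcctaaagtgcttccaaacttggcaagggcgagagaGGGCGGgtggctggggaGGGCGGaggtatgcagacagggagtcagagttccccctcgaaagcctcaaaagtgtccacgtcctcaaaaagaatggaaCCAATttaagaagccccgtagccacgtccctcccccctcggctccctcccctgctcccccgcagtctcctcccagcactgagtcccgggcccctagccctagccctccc

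Over the 32851 promoter windows of that table, 66.2% held an E-box match, 33.8% a CCAAT box, 32.7% a GC box, 12.4% a TATA box and 6.75% an AP-1 site. The windows shown for the 4 genes that were lower each held at least 1 E-box match, which 66.2% of all windows did, and none of these 4 windows held a match to the CCAAT box, GC box or AP-1 site. Fbln1 has a second RefSeq start, at 85206008, whose window is not shown and held 1 GC box match, 11 bases before that start, and 2 E-box matches. Ogn held 3 E-box matches, and its capitals near the 5′ end mark 2 overlapping TATA box matches on opposite strands, 229 and 227 bases before the start. The Col1a2 window held 1 CCAAT box and 2 GC box matches and no E-box match. GC content was 42.0% for Ogn, 46.4% for Fbln1, 54.4% for Pdgfra, 59.6% for Islr and 62.0% for Col1a2, around a median of 52.4% over all windows. These matches describe letters in a window and carry no information on binding.

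Ogn encodes osteoglycin, a small leucine-rich proteoglycan of connective tissue (chromosome 13, 49608046 to 49624501, GRCm38). Its level was 7.06, 21.0, 15.1 and 35.2 CPM in the 4 CON libraries. It was 8.43, 21.2, 21.9, 10.6 and 15.8 CPM in the 5 MAL libraries. It was 7.66, 3.98, 10.9, 5.79, 6.13, 4.28 and 3.49 CPM in the 7 MAL-BG libraries. CON 1 fell within the MAL-BG range and the other CON libraries lay above it, and MAL 1 and MAL 4 also lay within it. Ogn was lower in MAL-BG than in CON by a log2 fold change of -1.69 (SE 0.377, adjusted p = 0.00193) and lower than in MAL by -1.37 (SE 0.360, adjusted p = 0.00597). Adjusted p values come from the quasi-likelihood test of edgeR, corrected by Benjamini-Hochberg over all 14565 genes. To pass, a gene needed an adjusted p below 0.05 together with a log2 fold change beyond 0.58 in either direction.

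Fbln1 encodes fibulin-1, a glycoprotein of elastic fibres and basement membranes (chromosome 15, 85205949 to 85286535). It stood at 9.37, 20.6, 12.9 and 32.2 CPM in CON and at 9.02, 21.2, 22.4, 9.35 and 15.5 CPM in MAL. In MAL-BG the values were 4.01, 2.45, 4.69, 2.74, 10.8, 2.32 and 2.597 CPM. A total of 6 of the 7 MAL-BG libraries lay below every CON and MAL library, and the exception was MAL-BG 5. Fbln1 had the largest fold change of the 10 genes, at -2.14 on the log2 scale against CON (SE 0.425, adjusted p = 0.000871) and of -1.86 against MAL (SE 0.407, adjusted p = 0.00178). Without MAL-BG 5 these were -2.60 and -2.32.

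Islr encodes a secreted protein with leucine-rich repeats and an immunoglobulin domain, known as a marker of mesenchymal stromal cells (chromosome 9, 58156268 to 58204306, minus strand). CON libraries held 8.14, 32.7, 13.3 and 40.9 CPM and MAL libraries 12.3, 23.5, 28.6, 11.3 and 16.4 CPM. MAL-BG libraries held 8.43, 4.14, 10.96, 4.61, 11.1, 2.56 and 5.49 CPM. All 7 MAL-BG libraries lay below all 5 MAL libraries, with a narrow gap between 11.1 and 11.3 CPM, while CON 1 fell among the MAL-BG values. Islr changed by -1.81 against CON (SE 0.431, adjusted p = 0.00299) and -1.44 against MAL (SE 0.411, adjusted p = 0.00955). Islr shares 181 exon bases with Islr2 on the same strand, so reads there cannot be assigned to one of them.

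Pdgfra encodes the alpha receptor for platelet-derived growth factor, which is carried by fibroblasts and also by oligodendrocyte precursor cells (chromosome 5, 75152292 to 75198215). Its level was 3.84, 8.998, 10.1 and 17.0 CPM in CON, and 7.75, 12.6, 12.1, 6.53 and 9.08 CPM in MAL. In MAL-BG it was 5.13, 2.91, 6.41, 4.17, 2.66, 1.78 and 3.34 CPM. The highest MAL-BG library lay just under the lowest MAL library, and CON 1 again fell among the MAL-BG libraries. Pdgfra was lower than in CON by a log2 fold change of -1.40 (SE 0.354, adjusted p = 0.00446) and lower than in MAL by -1.35 (SE 0.337, adjusted p = 0.00423). Its exons overlap 622 bases of genes on the opposite strand, and whether counting used the strand is not given in the sources used here. With CON 4 and MAL-BG 5 both left out, an alternative added after the values were seen, the change against CON was -0.97 and missed the threshold (adjusted p = 0.0507).

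Among markers of oligodendrocyte precursors, the other cells that carry Pdgfra, relative to CON, 5 of 9 tested genes were lower in MAL-BG and 0 higher, with 1 more of the 10 listed not tested, beside 21.7% of all genes that were lower. Relative to MAL 4 of 9 were lower, beside 20.2%, and 0 higher. Their summed level was 37.4 to 134.7 CPM in CON, 43.0 to 103.6 CPM in MAL and 37.0 to 118.9 CPM in MAL-BG. Of that list, Ptprz1 was lower than in CON (log2 fold change -2.11, adjusted p = 0.000278), and Cspg4, which mural cells also express, had 0.10 (adjusted p = 0.862). Cspg4 held the largest share of the summed level. Among CON libraries its mean was 47.5 CPM, beside a mean of 86.4 CPM for the whole list. For MAL libraries these means were 41.4 and 80.7 CPM, and for MAL-BG libraries 51.0 and 67.4 CPM. The overlapping sums thus mostly reflect Cspg4 and do not describe the other markers. The part of oligodendrocyte precursors in the Pdgfra values was not tested.

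Slc6a13 encodes a plasma membrane transporter of GABA and taurine found in the leptomeninges (chromosome 6, 121300227 to 121337733). It was measured at 2.53, 4.73, 5.04 and 4.01 CPM in CON and at 5.96, 6.49, 6.11, 5.08 and 2.79 CPM in MAL. The 7 MAL-BG libraries gave 4.30, 2.61, 2.76, 2.43, 2.71, 1.60 and 2.15 CPM. A total of 6 of the 7 MAL-BG libraries lay below every MAL library, with MAL-BG 1 above MAL 5. Against MAL the log2 fold change was -0.99 (SE 0.268, adjusted p = 0.00698). Against CON it was -0.62 (SE 0.287) and did not pass (adjusted p = 0.0892), with a 95% interval from -1.22 to -0.01. It passed without CON 1 (-0.79, adjusted p = 0.0360), without MAL-BG 1 (-0.72, adjusted p = 0.0423) and without a scaling factor (-0.76, adjusted p = 0.0449). The difference between these changes was not tested beyond the comparison of MAL with CON.

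**Figure D1:**
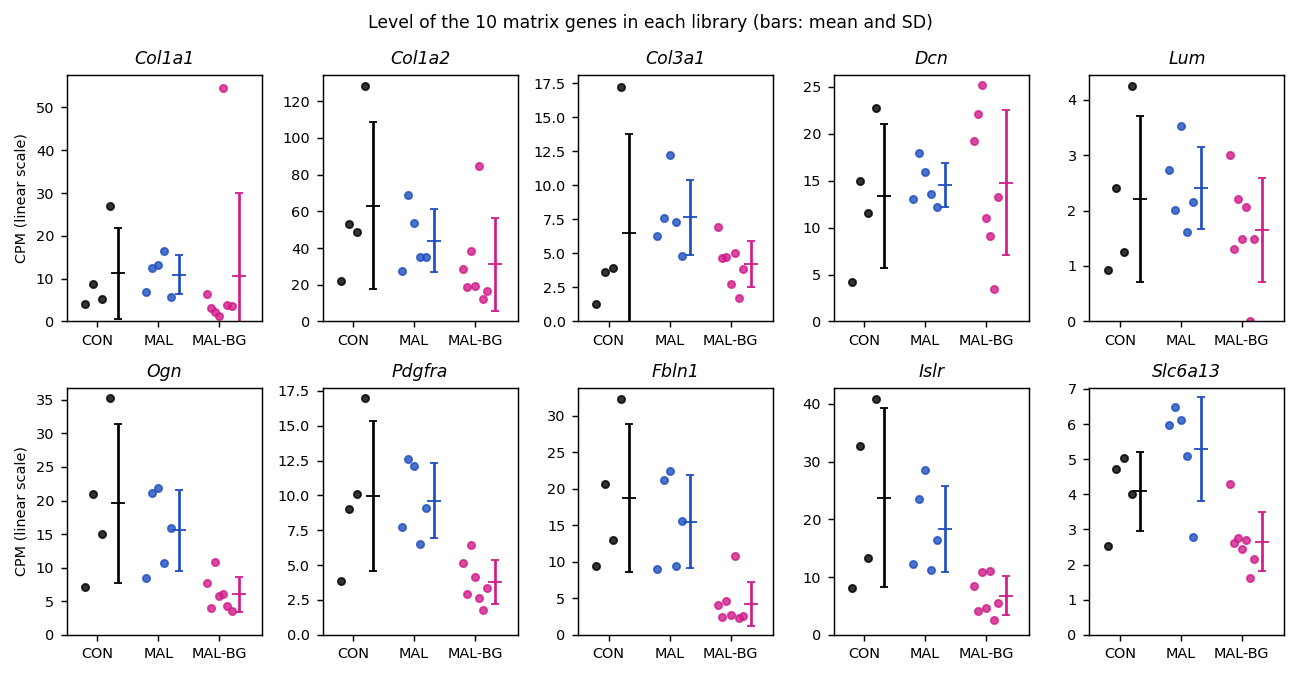
Level of each of the 10 matrix genes in CPM on a linear axis, with 1 point per library (4 CON in black, 5 MAL in blue, 7 MAL-BG in magenta) and the mean with SD beside each group, cut at 0. Ogn, Pdgfra, Fbln1 and Islr sit lower in MAL-BG, and 1 MAL-BG library reaches 54.5 CPM for Col1a1 and 84.9 CPM for Col1a2.

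Col1a1 and Col1a2 encode the chains of type I collagen, the main fibrillar collagen of connective tissue (chromosome 11, 94936224 to 94953042, and chromosome 6, 4504814 to 4541544). Col1a1 stood at 4.07, 8.72, 5.36 and 26.9 CPM in CON and at 6.98, 12.5, 13.2, 16.5 and 5.65 CPM in MAL. In MAL-BG it stood at 6.43, 3.06, 2.14, 1.37, 54.5, 3.74 and 3.56 CPM. The mean of 10.7 ± 19.4 CPM (SD, n = 7) in MAL-BG rested on the single library MAL-BG 5. The median there was 3.56 CPM against 7.04 CPM in CON and 12.5 CPM in MAL. With all libraries the log2 fold change was -0.07 against CON (SE 0.847, adjusted p = 0.953) and -0.03 against MAL (SE 0.793, adjusted p = 0.983). Leaving out MAL-BG 5 gave -1.75 (adjusted p = 0.0104) and -1.70 (adjusted p = 0.00999), both past the thresholds. With CON 4 left out alone it was 0.83 against CON (adjusted p = 0.508), and with both left out -0.84 against CON (adjusted p = 0.136) and -1.70 against MAL (adjusted p = 0.00250).

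Col1a2, the most abundant of the 10 genes in CPM, was at 22.1, 53.3, 48.5 and 128.4 CPM in CON. It was at 27.3, 69.1, 53.5, 35.1 and 35.1 CPM in MAL and at 28.7, 18.7, 38.3, 19.1, 84.9, 12.2 and 16.5 CPM in MAL-BG. MAL-BG 5 was again the highest of its group, and CON 4 the highest of all libraries. The log2 fold change was -1.01 against CON (SE 0.485, adjusted p = 0.0978) and -0.49 against MAL (SE 0.461, adjusted p = 0.397), so neither passed. Without MAL-BG 5 both passed, at -1.53 (adjusted p = 0.00621) and -1.002 (adjusted p = 0.0435), and without CON 1 the change of -1.30 against CON passed (adjusted p = 0.0369). Without CON 4 and MAL-BG 5 the change was -0.91 against CON (adjusted p = 0.0552) and -1.002 against MAL (adjusted p = 0.0177).

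Col3a1 encodes type III collagen, which forms mixed fibrils with type I collagen in soft tissues (chromosome 1, 45311538 to 45349706, with 141 exon bases shared with Gm47302 on the same strand). It was at 1.31, 3.62, 3.94 and 17.3 CPM in CON, at 6.30, 7.61, 12.2, 7.33 and 4.78 CPM in MAL and at 6.96, 4.67, 4.76, 2.74, 5.04, 1.72 and 3.86 CPM in MAL-BG. The mean of CON rested on CON 4, and the other CON libraries overlapped MAL-BG. Against CON it had a log2 fold change of -0.62 (SE 0.502, adjusted p = 0.328), and of -0.85 against MAL (SE 0.471, adjusted p = 0.153). Without CON 4 the sign against CON turned, to 0.53 (adjusted p = 0.339).

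Dcn and Lum encode decorin and lumican, small leucine-rich proteoglycans that bind collagen fibrils. They are neighbours on chromosome 10 (97479609 to 97518143 and 97565128 to 97572703), 46984 bases apart. Dcn was at 4.22, 14.9, 11.5 and 22.7 CPM in CON, at 13.02, 18.0, 15.9, 13.5 and 12.2 CPM in MAL, and at 19.2, 22.1, 25.2, 11.02, 9.11, 3.51 and 13.3 CPM in MAL-BG. The MAL-BG libraries spanned the range of both other groups. The log2 fold change of Dcn was 0.15 against CON (SE 0.429, adjusted p = 0.805, 95% interval -0.76 to 1.05) and 0.02 against MAL (SE 0.399, adjusted p = 0.970, 95% interval -0.82 to 0.86), and its sign turned to negative in both without a scaling factor. Lum was the least counted of Dcn, Lum and Ogn, at 0.92 to 4.24 CPM in CON, 1.61 to 3.53 CPM in MAL and 0 to 3.01 CPM in MAL-BG. MAL-BG 6 held 0 counts of Lum, which allows a level of up to 0.178 CPM by counting error alone (3 counts). The log2 fold change of Lum was -0.42 against CON (SE 0.609, adjusted p = 0.601) and -0.54 against MAL (SE 0.569, adjusted p = 0.458), with intervals that reach from -1.70 to 0.87 and from -1.74 to 0.66.

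Against CON, 4 of the 10 matrix genes were lower in MAL-BG (Ogn, Pdgfra, Fbln1 and Islr), beside 21.7% of all genes tested, and 0 were higher, beside 11.4%. Against MAL, 5 of 10 were lower (the same 4 and Slc6a13), beside 20.2% of all genes, and 0 were higher, beside 10.2%. DESeq2 called the same 4 and 5 genes. The median log2 fold change of the 10 genes was -0.82 against CON and -0.92 against MAL, where the median of all genes was -0.04 and -0.03. No matrix gene had all MAL-BG libraries below all CON libraries, as 11.1% of all genes did, and Pdgfra and Islr lay wholly below MAL, as 8.95% did. These comparisons share the MAL-BG libraries, so their agreement is not independent. Left out 1 at a time, no library removed any of these calls, and the count rose to 6 against CON without CON 1 or without MAL-BG 5 and to 7 against MAL without MAL-BG 5. With CON 4 and MAL-BG 5 left out together it was 3 against CON (Ogn, Fbln1 and Islr) and 7 against MAL.

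**Figure D2:**
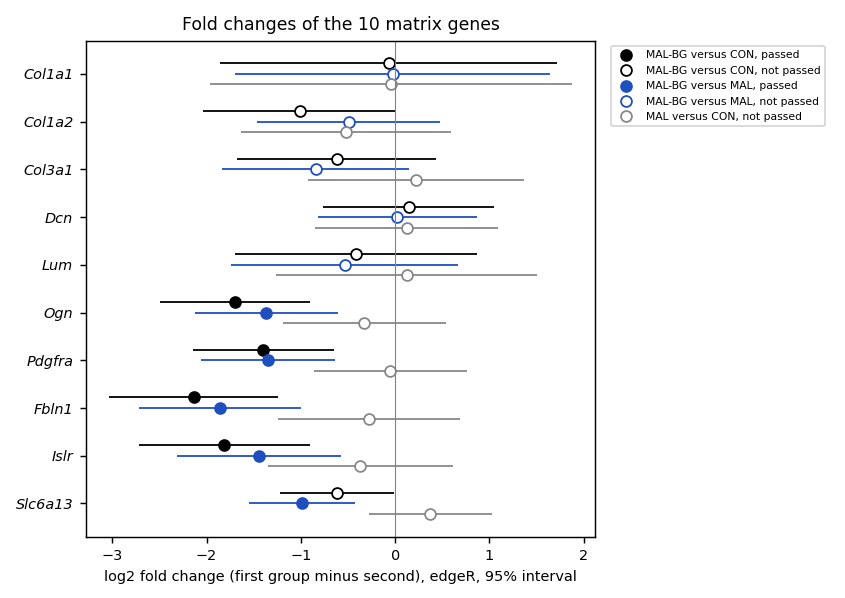
Log2 fold change of each matrix gene from edgeR, with a 95% interval derived from the F statistic of the test. Comparisons are MAL-BG versus CON (black), MAL-BG versus MAL (blue) and MAL versus CON (grey), with filled circles for changes that passed. The filled circles lie between -2.14 and -0.99, and every MAL versus CON circle is open.

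MAL and CON, whose labels differ in diet, gave 0 of 10 matrix genes past the thresholds in edgeR and in DESeq2, and 0 had an unadjusted p under 0.05 in either. Over all genes 0 were called, which is 0% of 14565, with 212 at an unadjusted p under 0.05 in edgeR and 241 in DESeq2. The log2 fold changes of the 10 genes ran from -0.52 for Col1a2 to 0.37 for Slc6a13, and the smallest adjusted p over all genes was 0.999. The intervals were wide, from -1.24 to 0.69 for Fbln1 and from -0.86 to 0.76 for Pdgfra.

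Levels per kilobase of exon were taken with each exon base of all annotated transcripts of a gene counted once. On that scale Islr and Ogn were the highest over the 16 libraries, at 5.45 and 4.83 CPM per kb. Col1a2 followed at 3.47, Fbln1 at 2.61, Dcn at 2.46, Col1a1 at 1.66 and Slc6a13 at 1.32 CPM per kb. Lum at 0.83, Pdgfra at 0.71 and Col3a1 at 0.60 CPM per kb were the lowest. The exon length so counted was 12.4 kb for Col1a2, 5.84 kb for Dcn and 2.69 kb for Islr. A shorter length would raise the value of a gene, so the order holds for this length only. It was not tested with the length of a single transcript. Within CON, Islr at 8.85 ± 5.79 and Ogn at 7.63 ± 4.63 CPM per kb (SD, n = 4) overlapped, as did Fbln1 at 4.30 ± 2.32 and Col1a2 at 5.08 ± 3.67. In MAL-BG the order differed. Dcn at 2.53 ± 1.32, Islr at 2.51 ± 1.27, Col1a2 at 2.51 ± 2.03 and Ogn at 2.35 ± 1.01 CPM per kb (SD, n = 7) lay within each other's spread, and Fbln1 was at 0.970 ± 0.698.

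Ratios between genes within a library do not depend on its scaling. Dcn counts per Ogn count were 0.598, 0.712, 0.764 and 0.645 in CON, a mean of 0.680 ± 0.073 (SD, n = 4). They were 1.55, 0.849, 0.728, 1.27 and 0.769 in MAL and 2.51, 5.54, 2.32, 1.90, 1.49, 0.819 and 3.81 in MAL-BG. Every MAL-BG library exceeded every CON library, and MAL lay between, overlapping both. The Dcn per Fbln1 ratio was 0.451 to 0.890 in CON and 0.840 to 9 in MAL-BG, where MAL-BG 5 was lowest. Ogn per Islr, by contrast, was 0.875 ± 0.200 in CON, 0.853 ± 0.121 in MAL (n = 5) and 0.998 ± 0.379 in MAL-BG (n = 7). Ogn per Fbln1 was not as even, at 0.754 to 1.16 in CON, 0.934 to 1.14 in MAL and 1.34 to 2.32 in 6 of the 7 MAL-BG libraries, with 0.565 in MAL-BG 5. The pairs were chosen after their values were seen, so these ratios are given with no test.

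Col1a1 per Col1a2, in counts per kb, was 0.348, 0.310, 0.209 and 0.397 in CON and 0.305 to 0.892 in MAL. In MAL-BG it was 0.424, 0.310, 0.106, 0.136, 1.22, 0.582 and 0.408. MAL-BG 5 was the only library with a ratio above 1, a value that rests on the exon lengths used. In counts alone its ratio was 0.642, still the highest, with 0.471 in MAL 4 next. MAL-BG 5 was also the library with Ibsp, Mmp13 and Mpo far above the rest. The share of bone or marrow RNA in its collagen counts was not tested.

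**Figure D3:**
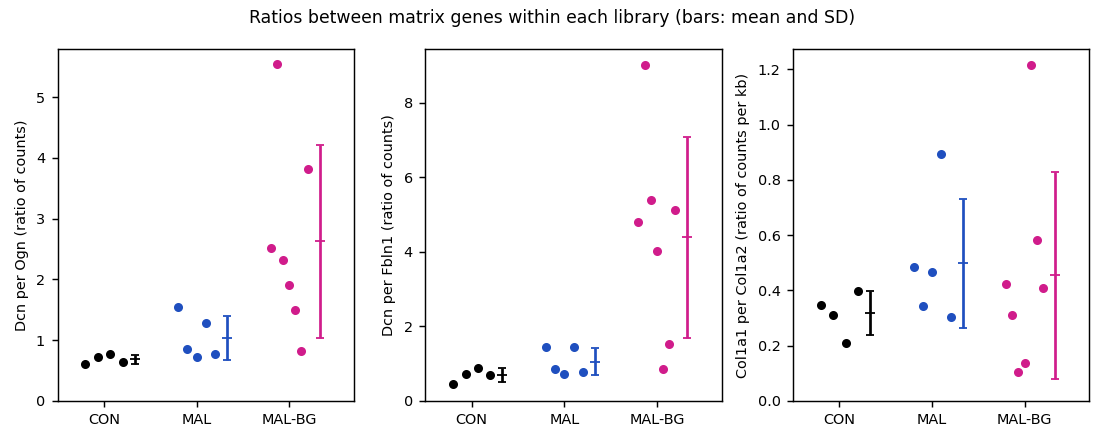
Ratios of counts within each library, Dcn per Ogn and Dcn per Fbln1 in counts and Col1a1 per Col1a2 in counts per kb, with 1 point per library and the mean with SD. Dcn per Ogn is 0.598 to 0.764 in CON and 0.819 to 5.54 in MAL-BG, and Col1a1 per Col1a2 reaches 1.22 in 1 MAL-BG library.

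Libraries of one group also differed together across the matrix genes. The mean deviation of the 10 genes from their group mean, in log2 CPM with a prior count of 2, was -1.13 in CON 1 and 1.10 in CON 4, -1.13 in MAL-BG 6 and 0.80 in MAL-BG 5, and between -0.32 and 0.48 in the MAL libraries. The value of MAL-BG 5 was raised by Col1a1 (3.51), and that of MAL-BG 6 was lowered by Lum (-3.24). Across the 16 libraries, each gene's deviations were correlated with the mean of the other 9 genes. Pearson's r was highest for Islr (0.931), Col1a2 (0.903) and Col3a1 (0.869), and was 0.827 for Fbln1, 0.781 for Ogn and 0.751 for Pdgfra. It was lowest for Col1a1 (0.486) and Slc6a13 (0.591), and for Col1a1 it was 0.264 without CON 4 and MAL-BG 5. These r values describe points that share library, depth and preparation, and they carry no p.

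**Figure D4:**
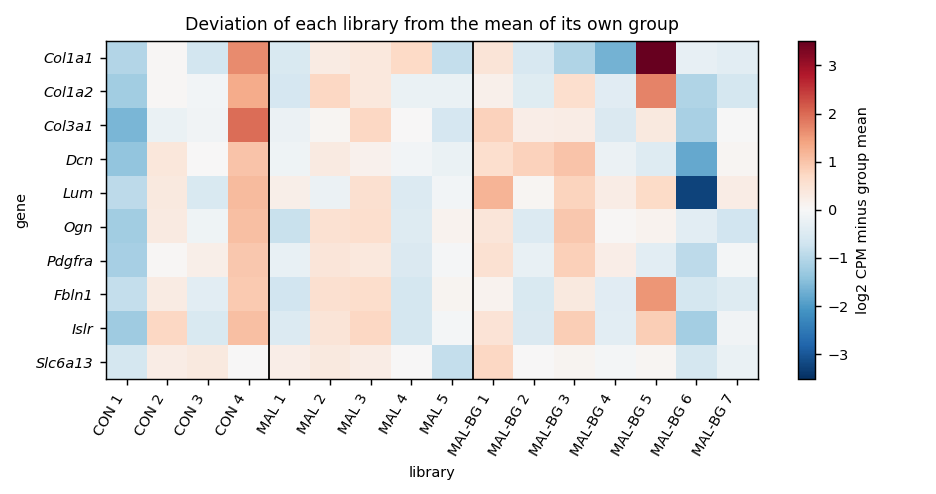
Deviation of each matrix gene in each library from the mean of its own group, in log2 CPM, from blue (below) to red (above), with lines between CON, MAL and MAL-BG. CON 4 is red and CON 1 blue for nearly every gene, and Col1a1 in MAL-BG 5 and Lum in MAL-BG 6 are the strongest cells.

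The other matrix genes were read from 8 lists of the same biology, 102 genes of which 92 were tested. Against CON, 25 of 92 were lower in MAL-BG (beside 21.7% of all genes) and 8 were higher (beside 11.4%). Against MAL, 24 were lower (beside 20.2%) and 10 higher (beside 10.2%). The median log2 fold change over the 92 genes was -0.45 and -0.25. Without CON 4 and MAL-BG 5 the counts were 18 lower and 9 higher against CON and 30 lower and 10 higher against MAL, and leaving out MAL 2 or MAL 3 gave 15 lower against MAL. MAL and CON differed at 0 of the 92.

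Of other genes of meningeal and perivascular fibroblasts, 8 of 26 tested fell in MAL-BG relative to CON (beside 21.7% of all genes) and 0 rose, with a median of -1.001, and without MAL-BG 5 the count that fell was 14. Relative to MAL 8 fell (beside 20.2%) and 1 rose, with a median of -0.77. Igfbp2, an insulin-like growth factor binding protein gene of the leptomeninges, averaged 129.0 ± 113.9 CPM in MAL-BG against 503.3 ± 248.9 in CON and 336.0 ± 198.1 in MAL (SD, n = 7, 4 and 5), with log2 fold changes of -1.96 against CON (adjusted p = 0.00971) and -1.38 against MAL (adjusted p = 0.0455). The call against MAL was fragile: it was lost with DESeq2 (-1.36, adjusted p = 0.0512) and on leaving out any 1 of 11 libraries (CON 3, CON 4, MAL 2, MAL 3, MAL 5 and every MAL-BG library other than MAL-BG 3), where it was -1.38 to -1.16. Mgp, which encodes an inhibitor of calcification, went the other way, at 153.3 ± 68.6 CPM in MAL-BG against 87.0 ± 79.0 in CON and 41.4 ± 10.997 in MAL, and was higher than in MAL by 1.89 (adjusted p = 0.00576), with 0.82 against CON (adjusted p = 0.203), which was 1.60 and passed without CON 4 (adjusted p = 0.0218). Col15a1, a basement membrane collagen gene, had -0.05 and -0.25.

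Among small leucine-rich proteoglycans other than Dcn, Lum and Ogn, 3 of 6 tested were lower against both groups and 0 were higher. Of all genes, 21.7% were lower and 11.4% higher against CON, and 20.2% and 10.2% against MAL. Prelp, which anchors basement membranes to collagen, was lower, at -1.45 against CON (adjusted p = 0.00479) and by -1.28 against MAL (adjusted p = 0.00760). Bgn, the gene of biglycan and the closest relative of Dcn, had -0.67 (adjusted p = 0.141) and -0.25 (adjusted p = 0.570), and Ecm2 had -0.52 and -0.43. Kera, a cornea proteoglycan gene of this list, was at 0 in all libraries.

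Of the fibulins and elastic fibre partners beside Fbln1, 2 of 11 were lower and 0 higher against CON, beside 21.7% and 11.4% of all genes. Against MAL 1 was lower and 1 higher, beside 20.2% and 10.2%. Eln, the elastin gene, was higher than in MAL by 1.42 (adjusted p = 0.0262), with 0.46 against CON (adjusted p = 0.481), and the call against MAL was lost without MAL 1, MAL 4 or MAL-BG 3 (1.11 to 1.30). Ltbp4, which stores latent TGF-beta in microfibrils, had 0.13 and 0.76, and Fn1, the fibronectin gene, had -0.22 and -0.08, and neither gene passed in either comparison.

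Of the 20 genes of collagen synthesis, 12 were not called against CON, 4 were higher (beside 11.4% of all genes) and 4 lower (beside 21.7%). Against MAL 3 were higher (beside 10.2%) and 4 lower (beside 20.2%). P4ha1, a collagen prolyl hydroxylase gene, was higher by 0.66 against CON (adjusted p = 0.00245) and by 0.60 against MAL (adjusted p = 0.00299), and Plod3, a collagen lysyl hydroxylase gene, was higher by 0.59 against CON (adjusted p = 0.00503) and had 0.55 against MAL. Both genes lie at the fold threshold. P4ha1 fell under it without CON 4 (0.55) against CON, and without MAL 3 (0.56) or MAL-BG 6 (0.54) against MAL. Plod3 fell under it against CON without CON 2 (0.51), CON 4 (0.52) or MAL-BG 1 (0.54) and in 5 of 10 other settings, and passed against MAL without MAL 1, MAL-BG 2, MAL-BG 3, MAL-BG 4 or MAL-BG 7 (0.585 to 0.62). P4hb, a general disulfide isomerase gene of the endoplasmic reticulum, had 0.56 and 0.58, under the fold threshold. These 3 genes stood at 190 to 544 CPM in group means and serve secretory cells of many kinds. The 4 that were lower were Pcolce, Loxl1, Loxl2 and P4ha3, which enhance procollagen cleavage, crosslink collagen or hydroxylate it, and Plod1 and Colgalt1 were the other 2 that were higher. These last 6 genes were named after their values were seen. Without CON 4, 2 were higher against CON, and without CON 2, 2 were lower.

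Receptors that bind or take up collagen gave 1 of 9 higher and 4 lower against CON, beside 11.4% and 21.7% of all genes, and 2 lower without CON 4. Against MAL 1 was higher and 3 were lower, beside 10.2% and 20.2%. Lair1, an inhibitory collagen receptor of leukocytes, was higher by 0.71 against CON (adjusted p = 0.00385). Against MAL it had 0.52, under the fold threshold, and it passed there without MAL 4 (0.66) or MAL-BG 3 (0.59). Against CON, Itgb1, the beta chain of collagen integrins, had 0.24 and Mrc1, a macrophage mannose receptor that takes up collagen, had 0.00. Ddr1, Ddr2, Itga1 and Itga10, chosen after their values were seen, were the 4 that were lower against CON, by -2.001, -1.27, -1.07 and -1.26. Among proteases and inhibitors, 3 of 11 were higher and 1 lower against both groups. Beside them, 11.4% of all genes were higher and 21.7% lower against CON, and 10.2% and 20.2% against MAL. The 3 proteases that were higher, named after their values were seen, were Mmp8 and Mmp9, proteases stored in neutrophil granules, by 3.74 and 3.97 against CON, and Mmp14, a membrane-bound collagenase gene, by 1.10. The 6 granule genes of maturing neutrophils summed to a median of 15.0 CPM in MAL-BG (0.297 to 1130 CPM), 0.804 CPM in CON and 1.21 CPM in MAL, and their part in the Mmp8 and Mmp9 values was not tested. The one that was lower was Adamts1, a protease of matrix proteoglycans, at 116.2 ± 24.4 CPM in MAL-BG against 456.2 ± 83.4 in CON and 354.2 ± 50.9 in MAL, with -1.97 against CON (adjusted p = 1.42e-06) and -1.61 against MAL. Timp2 had 0.39 and 0.56, under the fold threshold, and Timp3 had -0.29 and 0.05.

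For the PDGF family, 2 of 5 were lower and 0 higher against CON, beside 21.7% and 11.4% of all genes. Against MAL 2 were lower and 1 was higher, beside 20.2% and 10.2%. The ligand genes Pdgfb and Pdgfa had 0.39 and 0.20 against CON, neither past the thresholds. Pdgfa was higher than in MAL by 0.60 (adjusted p = 0.0160). That call was lost without MAL 1, MAL 4 or MAL-BG 3 (0.48 to 0.57) and in 3 of 10 other settings. Pdgfrb, the sister receptor of Pdgfra and a mural cell gene, had 0.03 (adjusted p = 0.961) against CON and 0.14 (adjusted p = 0.780) against MAL, and its sign turned against CON without a scaling factor. Of the relatives of Slc6a13, 1 of 4 was lower against CON and 0 were higher, beside 21.7% and 11.4% of all genes. Against MAL 2 were lower and 0 higher, beside 20.2% and 10.2%. Leaving out 1 library gave 1 to 3 lower against MAL. Slc6a11, a GABA transporter gene of astrocytes, averaged 5.30 ± 3.07 CPM in MAL-BG against 10.9 ± 3.83 in CON and 18.9 ± 4.76 in MAL and was lower, at -1.03 (adjusted p = 0.0254) and -1.83 (adjusted p = 0.000480). The call against CON was lost without CON 3, CON 4, MAL-BG 1, MAL-BG 2 or MAL-BG 7, at -0.96 to -0.83. Slc6a6, the taurine transporter gene, had -0.14 against CON and 0.09 against MAL.

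**Figure D5:**
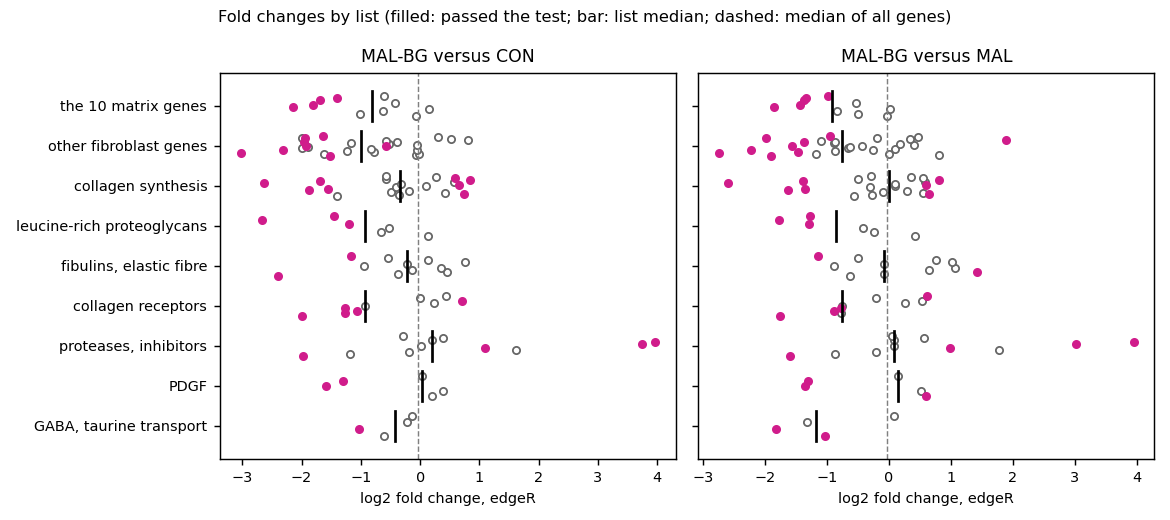
Log2 fold change of every tested gene in MAL-BG versus CON (left) and MAL-BG versus MAL (right), with 1 row for the 10 matrix genes and 1 for each of the 8 related lists. Filled points passed the test, the bar is the list median and the dashed line the median of all genes, -0.04 on the left and -0.03 on the right.

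Markers of some other cells differed between the groups as well. Of all genes, 21.7% were lower and 11.4% higher against CON. All 10 choroid plexus epithelium markers fell relative to CON (median log2 fold change -2.41), with a summed level of 10810 to 41687 CPM in CON, 5041 to 32784 in MAL and 1481 to 13238 in MAL-BG. Of the 10 ependyma markers 10 were lower (152.1 to 278.7 CPM in CON, 66.7 to 247.1 in MAL, 33.3 to 108.8 in MAL-BG), of the 10 neuron markers 8 (38.7 to 209.7, 65.7 to 179.4 and 16.05 to 69.3 CPM) and of the 10 astrocyte markers 4 (300.3 to 654.2, 340.9 to 580.1 and 191.8 to 385.6 CPM). Mural cell markers were lower for 2 of 10 (272.9 to 1514, 393.4 to 921.8 and 460.5 to 1493 CPM), and border-associated macrophage markers for 1 of 10 (228.7 to 709.9, 261.7 to 922.7 and 241.9 to 361.9 CPM). Neither count exceeded the share of all genes. Endothelial markers were higher for 3 of 10 (580.4 to 2020, 540.0 to 1507 and 1221 to 3897 CPM) and microglia markers for 6 of 11. Against MAL, 9 of 10 choroid plexus, 8 of 10 ependyma, 8 of 10 neuron and 5 of 10 astrocyte markers were lower. Of border-associated macrophage markers 2 of 10 were lower, and of mural cell markers 3 of 10 were lower and 2 higher. Endothelial markers were higher than in MAL for 5 of 10 and microglia markers for 6 of 11. Of all genes, 20.2% were lower and 10.2% higher against MAL. None of the markers in these 8 lists was at 0 in any library. Their part in the values of the matrix genes and of the related genes, Igfbp2 among them, was not tested.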

How the data were processed

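CD11b-positive brain cells of 16 libraries (4 CON, 5 MAL, 7 MAL-BG) were profiled by paired-end, stranded mRNA sequencing. The authors mapped reads to GRCm38 (STAR), assigned them to genes (HTSeq) and deposited the counts as whole numbers, 1 column per library, with no normalization. The annotation used for counting is not given in the sources used here. Column numbers matched no sample title, so columns were assigned to groups only.

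Genes were tested if 4 or more libraries exceeded 10 counts. Counts were scaled by TMM and tested with edgeR 4.0.16 (glmQLFit and glmQLFTest, all 3 groups in 1 fit, no batch term) in R 4.3.3, with Benjamini-Hochberg adjustment over 14565 genes. Scaling by TMM assumes that most genes do not change. Of the 14565 genes, 7678 had an unadjusted p under 0.05 in edgeR against CON and 7609 against MAL, so this assumption may not hold here. Without a scaling factor, P4ha1 had 0.54 and Plod3 0.47 against CON, under the fold threshold. DESeq2 1.42.0, other scalings, filters, thinning to the smallest total and leaving out each library were the alternatives. The pipeline was tested on simulated data. CPM used TMM-scaled totals, and exon lengths came from GENCODE M21, as the union of all exons of a gene. The lowest chi-square per degree of freedom between libraries of a group was 9.80, so no library was counted as a repeat. A total of 27 gene names read as dates, and none was a gene of the lists.

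The matrix genes and lists were chosen with earlier results of these data known. Named genes were the 10 matrix genes, the 3 genes with the highest mean CPM in each matrix list, the 2 highest in each cell type list and the 10 best co-varying genes, and cell type lists other than oligodendrocyte precursors are given by counts and sums. One gene that this rule names is not reported here. Other genes are marked as chosen after their values were seen. Intervals for counts of 0 cover counting error only.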

Additional observations from a re-analysis of the deposited data

Results flagged for a closer look

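Values far from the rest of their group were sought in 30 groups of values (10 genes in 3 groups) by the ratio of the gap beside the highest or lowest library to the whole range, a check that chance trips in about 1 group in 20. It marked 5. Col1a1 in MAL-BG 5 was at 54.5 CPM (ratio 0.905, limit 0.568), Col1a2 in the same library at 84.9 CPM (ratio 0.641) and Fbln1 there at 10.8 CPM (ratio 0.722). Col3a1 in CON 4 was at 17.3 CPM (ratio 0.835, limit 0.829). Slc6a13 in MAL-BG 1 was at 4.30 CPM (ratio 0.573, just past the limit of 0.568).

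Across the same libraries the 6 bone genes added after the values were seen (Ibsp, Bglap, Sp7, Mmp13, Dmp1 and Phex) summed to 41.2 CPM in MAL-BG 5 and to 7.42 CPM in CON 4, and the 6 granule genes of maturing neutrophils (Elane, Mpo, Prtn3, Ctsg, Fcnb and Ms4a3) summed to 1130 CPM in MAL-BG 5, 90.9 CPM in MAL-BG 7 and 20.7 CPM in CON 2. Of the bone sum in MAL-BG 5, Mmp13 gave 26.6 CPM and Ibsp 10.6 CPM. Bglap was at 0.759 CPM there and at 0.0757 CPM in CON 4. The other bone genes did not mark this library. Dmp1 was at 1.52 CPM there and 3.58 CPM in MAL-BG 3. Sp7 was at 1.08 CPM there and 2.27 CPM in CON 4, and Phex at 0.705 and 0.681 CPM. Fbln1 and Col1a2, which are not bone genes alone, were high in MAL-BG 5 as well, and Dcn at 9.11 CPM and Pdgfra at 2.66 CPM were not. The origin of these counts was not tested.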

How the results depend on the processing

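No paired analysis was possible because the running numbers of the columns match no sample title. Lum could not be tested where more than 10 counts were required in all 16 libraries. In 1-at-a-time removal, the number of matrix genes called was 4 to 6 against CON, 5 to 7 against MAL and 0 to 0 between MAL and CON. Related genes called lower numbered 19 to 32 and higher 7 to 9 against CON, and lower 15 to 28 (15 without MAL 2 or MAL 3) and higher 9 to 15 against MAL. The latter count was 5 without a scaling factor, which moved the median of all genes to -0.17 against CON and -0.16 against MAL, and 17 without a fold threshold. Over all genes that scaling gave 3619 lower and 1047 higher against CON, and 3471 and 872 against MAL, beside 3161 and 1659, and 2944 and 1479. Of the 10 co-varying genes, 5 remained with Spearman's rho and 2 without CON 4 and MAL-BG 5. The cause was not tested.

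Among values that did not pass with all libraries, signs turned as follows. Without CON 4 and MAL-BG 5, log2 fold changes against CON were 0.46 for Col3a1, 0.0375 for Lum, 0.26 for Fn1, 0.0194 for Timp3 and 0.10 for Slc6a6, and MAL against CON gave 0.86 for Col1a1, 0.0899 for Col1a2, 0.12 for Ogn, 0.33 for Pdgfra, 0.12 for Fbln1 and 0.0274 for Islr. Without a scaling factor, changes against CON were -0.0162 for Dcn, -0.0181 for Ltbp4, -0.11 for Mrc1, -0.12 for Pdgfrb and -0.0538 for Cspg4, and against MAL -0.12 for Dcn, -0.0887 for Timp3 and -0.0465 for Slc6a6. The stricter filter gave -0.0583 for Mrc1 and -0.0342 for Pdgfrb against CON, and -0.0284 for Dcn and -0.0054 for Timp3 against MAL. Upper-quartile scaling, compared groups alone and thinning gave -0.0192, -0.0099 and -0.0385 for Mrc1 against CON, and thinning gave 0.0024 for Col1a1 and -0.0374 for Dcn against MAL.

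Leaving out 1 library gave, against CON, -1.75 to 0.83 for Col1a1, -0.96 to 0.53 for Col3a1, -0.15 to 0.53 for Dcn, -0.67 to 0.12 for Lum, -0.14 to 0.0921 for Col15a1, -0.17 to 0.60 for Ltbp4, -0.49 to 0.31 for Fn1, -0.19 to 0.45 for Mrc1, -0.24 to 0.46 for Pdgfrb, -0.28 to 0.10 for Slc6a6 and -0.20 to 0.61 for Cspg4. Against MAL it gave -1.70 to 0.22 for Col1a1, -0.16 to 0.20 for Dcn, -0.24 to 0.15 for Fn1, -0.37 to 0.34 for Mrc1, -0.26 to 0.25 for Timp3, -0.11 to 0.30 for Pdgfrb and -0.0401 to 0.20 for Slc6a6. MAL against CON gave -0.32 to 0.86 for Col1a1, -0.80 to 0.0931 for Col1a2, -0.12 to 1.37 for Col3a1, -0.17 to 0.51 for Dcn, -0.14 to 0.66 for Lum, -0.61 to 0.12 for Ogn, -0.32 to 0.33 for Pdgfra, -0.50 to 0.12 for Fbln1 and -0.65 to 0.0297 for Islr.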

Other observations

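Across all 14565 genes, those whose deviations from the group means followed the mean of the 10 matrix genes most closely over the 16 libraries were Steap3 (Pearson's r = 0.932), Gsn (0.919), C1qtnf1 (0.910), Prkar2b (0.906), Prrg3 (0.900), Slc7a2 (0.898), Col5a2 (0.896), Dpysl3 (0.893), Mxra8 (0.892) and Trabd2b (0.889). Col5a2 encodes a chain of type V collagen, which is built into type I collagen fibrils, and Gsn encodes gelsolin, an actin-severing protein. Without CON 4 and MAL-BG 5, r was 0.926 for Steap3, 0.919 for Mxra8, 0.899 for Prrg3 and 0.896 for Slc7a2, and 0.832 for Trabd2b. These points share library and preparation, and the values are a description with no p.

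The same deviations, taken for the summed level of each list, had r = 0.847 for fibulins and elastic fibre genes, 0.815 for other fibroblast genes, 0.763 for mural cell markers and 0.449 for choroid plexus markers. For other cells, r was 0.687 for oligodendrocyte precursor, 0.631 for endothelial, 0.575 for neuron, 0.550 for astrocyte and 0.493 for ependyma markers. For other matrix lists it was 0.778 for proteases and inhibitors, 0.711 for proteoglycans and 0.587 for relatives of Slc6a13. It was -0.081 for collagen receptors, -0.134 for collagen synthesis and -0.153 for the PDGF family. A high r was thus not limited to fibroblast lists. Border-associated macrophage markers had r = -0.269 and microglia markers -0.669. Each r was taken over 16 libraries of all 3 groups together. A sum follows the most abundant genes of its list, so its r need not hold for the other genes. In CON, Igfbp2 averaged 503.3 CPM of 1045 CPM for other fibroblast genes. Ltbp4 and Fn1 averaged 296.3 and 256.2 CPM of 852.1 CPM for fibulins and elastic fibre genes.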
